A study of Mus musculus with 4 samples.

Results

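A set of liver B cells carrying transcripts of *Mreg*, *Cd86* and *Cd200* was taken from single-cell libraries of untreated mice and of mice with concanavalin A (ConA)-induced hepatitis. A cell was counted as a B cell when it held at least 3 UMIs (unique molecular identifiers, each counting 1 captured transcript) of *Cd79a*, *Cd79b* and *Ms4a1* together, no UMI of *Cd3d*, *Cd3e* or *Cd3g*, and at most 10% of its UMIs from mitochondrial genes. Among these gated B cells, those with at least 2 UMIs summed over *Mreg*, *Cd86* and *Cd200* were selected. They numbered 252 of 2674 gated B cells, or 9.42%, out of 9300 cells in all. Because the 3 genes chose the cells, their own levels and every difference between selected and other gated B cells are given as descriptions, with no test.

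The libraries held liver mononuclear cells of C57/Bl6 mice aged 8 to 10 weeks, enriched on a Percoll gradient and prepared with a 5′ droplet assay. Naïve mice received no ConA. The other mice received ConA, a plant lectin that activates T cells, and were sampled 24 hours later after vehicle (ConA+Veh), TCDD (ConA+TCDD) or FICZ (ConA+FICZ). TCDD is a dioxin that persistently activates the aryl hydrocarbon receptor (AhR), and FICZ is a tryptophan-derived AhR ligand that is rapidly metabolised. By the methods of the study, TCDD or its corn oil vehicle was given 1 hour after ConA. The methods do not describe the FICZ treatment. Each condition had 1 library, and the number of mice behind each library is not stated, so no difference between conditions has a replicate check. All intervals below are 95% intervals that cover counting error alone, and they treat the UMIs of a cell as independent.

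B cells recognise antigen through a surface immunoglobulin that signals through *Cd79a* and *Cd79b*. A B cell that meets antigen or T cell help enlarges, makes ribosomes, may divide, and displays costimulatory molecules such as CD86, which engages CD28 on T cells. CD200 is a surface glycoprotein whose receptor restrains myeloid cells, and *Mreg* encodes melanoregulin, a small protein of organelle transport. AhR is a ligand-activated transcription factor that binds DNA at sites with the core GCGTG.

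Depth differed between libraries and between the selected and other B cells. Values for the 4 libraries are listed below in the order untreated, vehicle, TCDD and FICZ unless named. The 52, 61, 64 and 75 selected cells held 270577, 698286, 538224 and 750787 UMIs in total. Their median depth was 2679, 10852, 5879 and 8166 UMIs per cell, against 2135, 4395, 4049 and 3613 in the other gated B cells of the same libraries. The selected cells were thus the deeper cells in every library, and a sum of 2 UMIs is easier to reach in a deeper cell. In the Naïve library the 5 deepest selected cells carried 40.3% of all UMIs of the 52, so that library's summed values rest on few cells. The same share was 18.4% in ConA+Veh, 22.7% in ConA+TCDD and 15.8% in ConA+FICZ. The median mitochondrial share was lower in the selected than in the other cells, at 3.83% against 4.43%, 2.42% against 2.70%, 2.70% against 2.92% and 2.27% against 3.28% in the same order. Across libraries, 45 barcodes occurred more than once, and 1, 1, 1 and 0 of the selected cells carried such a barcode.

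*Cd200* and *Cd86* supplied most of the selecting UMIs. *Cd200* was present in 41, 38, 50 and 59 of the selected cells and *Cd86* in 32, 39, 49 and 37. *Mreg* was present in 4, 12, 13 and 5 cells, with 5, 15, 14 and 9 UMIs, so the cells are named by it but were seldom chosen by it. No selected cell carried *Mreg* without *Cd86* or *Cd200*. The *Cd86* level, as CPM (the UMIs of a gene summed over the selected cells and scaled to a common total), was 163, 102, 137 and 82.6 CPM, and the *Cd200* level 251, 93.1, 204 and 158 CPM. Cells with at least 2 of the 3 genes made up 42.3%, 45.9%, 67.2% and 32.0% of the selected cells. Joint *Cd86* and *Cd200* without *Mreg* was found in 34.6%, 26.2%, 46.9% and 25.3%, so the ConA+TCDD cells carried the genes together most often.

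In the mm10 (GRCm38) annotation *Mreg* lies on chr1:72159442-72212307, *Cd86* on chr16:36603869-36666081 and *Cd200* on chr16:45382135-45409053, all on the minus strand. The RefSeq GRCm38.p6 promoter table, which holds 250 bases before and 50 after each start, had entries for *Mreg* and *Cd200*. Both held the AhR core GCGTG on either strand, *Cd200* after its start and *Mreg* before it. The 2 *Mreg* matches are shown, each read here on the strand of the gene with the match in capitals. The first lies on chr1:72212468-72212492 (minus) and the next on chr1:72212404-72212428 (minus).
Mreg, distal match: cttttacaaaGCGTGtattgtggga
Mreg, proximal match: tgggttcggcCACGCgcagcagacc
The same 5 letters occur in 32.4% of all 32851 promoters in the table, so a match describes the sequence and is not a binding site.

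The cells carried the B cell markers of the gate, and other genes of B cell activation were higher than in the other gated B cells in some libraries and lower in others. Of 5 measured activation surface genes, 0 were higher and 1 was lower in all 4 libraries, and of 3 measured costimulatory ligands 0 were either. Over all 4861 genes with a mean of at least 20 CPM, 19.5% were higher and 13.3% lower in all 4, so counts in lists this small are near that background. The summed log2 ratio of the costimulatory ligands was −0.89 (−1.40 to −0.42), −0.01 (−0.41 to 0.38), 0.58 (0.11 to 1.04) and −0.29 (−0.69 to 0.08), above 0 beyond counting error in ConA+TCDD and below it in Naïve. That of the activation surface genes was −0.56 (−0.74 to −0.39), −0.08 (−0.23 to 0.06), −0.21 (−0.38 to −0.05) and 0.01 (−0.12 to 0.14), below 0 beyond counting error in Naïve and ConA+TCDD. With the others weighted to the depth of the selected cells, the ligand sum was −0.63, 0.28, 0.79 and 0.05, and that of the activation surface genes −0.15, 0.21, −0.12 and 0.27. *Cd79a* stood at 2136, 1727, 1046 and 1601 CPM in the selected cells, against 4018, 2458, 1968 and 1992 CPM in the other gated B cells, so it was lower in each library. *Cd69* and *Cd83*, surface genes induced early on activated lymphocytes, were at 322, 179, 253 and 226 CPM and at 492, 266, 249 and 282 CPM. Both were lower than or near the level of the other gated B cells, where *Cd69* stood at 452, 243, 275 and 243 CPM and *Cd83* at 868, 248, 302 and 267 CPM. *Cd80*, the second CD28 ligand, had a level of 3.70 CPM in Naïve and no UMI in the 3 ConA libraries. *Cd40* was at 77.6, 61.6, 61.3 and 55.9 CPM against 102, 55.5, 43.9 and 62.6 CPM. With no common direction in these genes, the cells are called *Mreg*/*Cd86*/*Cd200* B cells below, by the rule that chose them.

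Class-switched transcripts were sparse among them. The plasma cell list, which includes secretory genes that other B cells also use, summed to 1064, 901, 760 and 852 CPM against 966, 1295, 881 and 1073 CPM. *Jchain*, the joining chain of secreted IgM and IgA, gave 0, 1, 0 and 0 UMIs in the selected cells. *Ighm* and *Ighd*, the constant regions of unswitched B cells, were at 2436, 958, 877 and 972 CPM and at 455, 222, 164 and 322 CPM. The switched isotypes *Ighg1* and *Ighe* had no UMI, and *Ighg2b*, *Ighg2c*, *Ighg3* and *Igha* lay between 0 and 29.6 CPM.

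Most defining markers of other cell types were at or near 0 in the selected cells, while T and NK genes were found in a larger share of them than of the other gated B cells. *Trac*, the T cell receptor alpha constant gene, gave 1, 2, 3 and 1 UMIs, *Cd4* 0, 0, 1 and 0, *Csf1r*, the macrophage growth factor receptor, 0 in each library, and *Lyz2*, a lysozyme of myeloid cells, 0, 0, 6 and 2. The 9 T and NK genes summed to 12, 96, 51 and 104 UMIs, mostly *Lck*, with 11, 65, 35 and 65 UMIs, and 1, 13, 6 and 13 cells held at least 3 of them. These are 1.92%, 21.3%, 9.38% and 17.3% of the selected cells, against 0.510%, 8.22%, 7.14% and 7.11% of the others, which were also shallower. As a level the list went the other way after ConA, at 44.3, 137, 94.8 and 139 CPM against 36.3, 242, 121 and 213 CPM. The 4 neutrophil genes summed to 5, 1, 6 and 8 UMIs, with at most 4 UMIs for the most abundant gene. The 7 monocyte and macrophage genes summed to 14, 45, 21 and 33 UMIs, mostly *Tyrobp*, with 14, 38, 12 and 25 UMIs. Hepatocyte genes summed to 10, 6, 0 and 57 UMIs, and the 4 endothelial genes were at 0 in the selected cells of each library. No doublet caller was run, so cells fused with T cells that lost their Cd3 UMIs cannot be told apart from B cells with *Lck*. Leaving out every cell with at least 3 UMIs of a T or NK, myeloid or dendritic list removed 3, 17, 8 and 13 selected cells and kept 49, 44, 56 and 62.

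The share of gated B cells in the *Mreg*/*Cd86*/*Cd200* set was highest in the ConA+TCDD library. Of 1033 Naïve gated B cells 52 were selected, or 5.03% (3.78 to 6.55, exact Clopper-Pearson interval). The ConA+Veh library had 61 of 645, or 9.46% (7.31 to 11.98), and ConA+FICZ 75 of 708, or 10.6% (8.42 to 13.1). The ConA+TCDD library had 64 of 288, or 22.2% (17.6 to 27.5), and its interval did not overlap those of the other libraries. The ConA+Veh and ConA+FICZ intervals overlapped each other widely. With the B cell gate raised to 5 UMIs, 47 of 251 ConA+TCDD cells were selected, or 18.7% (14.1 to 24.1). The shares of Naïve, ConA+Veh and ConA+FICZ were then 5.08%, 9.54% and 10.7%.

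Set against vehicle, the log2 share of TCDD differed by 1.23 (0.70 to 1.76) and that of FICZ by 0.16 (−0.34 to 0.68). Vehicle differed from untreated by 0.91 (0.35 to 1.47), and TCDD from FICZ by 1.07 (0.56 to 1.57). The first 3 differences share the ConA+Veh library. The denominator moved as well, since gated B cells were 49.5% of all Naïve cells, 23.2% of ConA+Veh, 15.3% of ConA+TCDD and 27.7% of ConA+FICZ cells. As shares of all cells of a library the selected cells were 2.49%, 2.20%, 3.40% and 2.94%, a narrower spread than within the gate.

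When each gated B cell was reduced to 2000 randomly drawn UMIs, which drops cells below that depth, the order of the ConA+TCDD library stayed and that of Naïve and ConA+Veh turned. The thinned share was 2.89% (1.69 to 4.58) of 589 Naïve cells, 1.38% (0.597 to 2.70) of 580 ConA+Veh cells, 7.54% (4.60 to 11.5) of 252 ConA+TCDD cells and 2.47% (1.36 to 4.11) of 567 ConA+FICZ cells. At equal depth the log2 difference of TCDD from vehicle was 2.45 (1.19 to 3.85), and that of vehicle from untreated −1.07 (−2.49 to 0.22). The cells left out as shallower numbered 444, 65, 36 and 141. The lead of ConA+TCDD over Naïve was not firm at equal depth. With at least 1 UMI of the 3 genes, ConA+TCDD stood at 22.2% (17.2 to 27.9) and Naïve at 21.9% (18.6 to 25.5). By that measure ConA+Veh was at 15.0% (12.2 to 18.2) and ConA+FICZ at 13.6% (10.9 to 16.7). With at least 2 UMIs but thinned to 1000, the ConA+TCDD and Naïve intervals overlapped, at 1.94 to 6.80 and 0.614 to 2.06. T cells, gated on at least 3 Cd3 UMIs, gave the background of free RNA and of their own expression. Unthinned, 1.74%, 2.19%, 6.21% and 6.54% of them passed the 2-UMI threshold at median depths of 2995, 10062, 8468 and 10062 UMIs, and *Cd200* was found in 2.98%, 10.2%, 15.1% and 16.8% of them. Thinned to 2000 UMIs, the T cell share was 0%, 0%, 0.928% and 1.20%, below the B cell share in each library. Neutrophils, gated on at least 10 UMIs of *S100a8* and *S100a9*, passed in 0 of 21, 3 of 100, 0 of 40 and 1 of 258 cells unthinned, and in 0 of 12, 1 of 68, 0 of 21 and 0 of 148 cells thinned to 2000 UMIs. The 1 of 68 is 1.47%, above the 1.38% of ConA+Veh B cells, and at 1000 UMIs the T cell share of ConA+FICZ was 0.468% against 0.289% of B cells. The thinned ConA+Veh and ConA+FICZ shares are thus not clear of this background, while the ConA+TCDD share was above that of T cells at either depth, at 1000 UMIs with 3.86% (1.94 to 6.80) against 0.667% (0.138 to 1.94). The few ConA+TCDD neutrophils, 0 of 21 at 2000 UMIs with an interval reaching 16.1%, set no useful background.

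**Figure D1:**
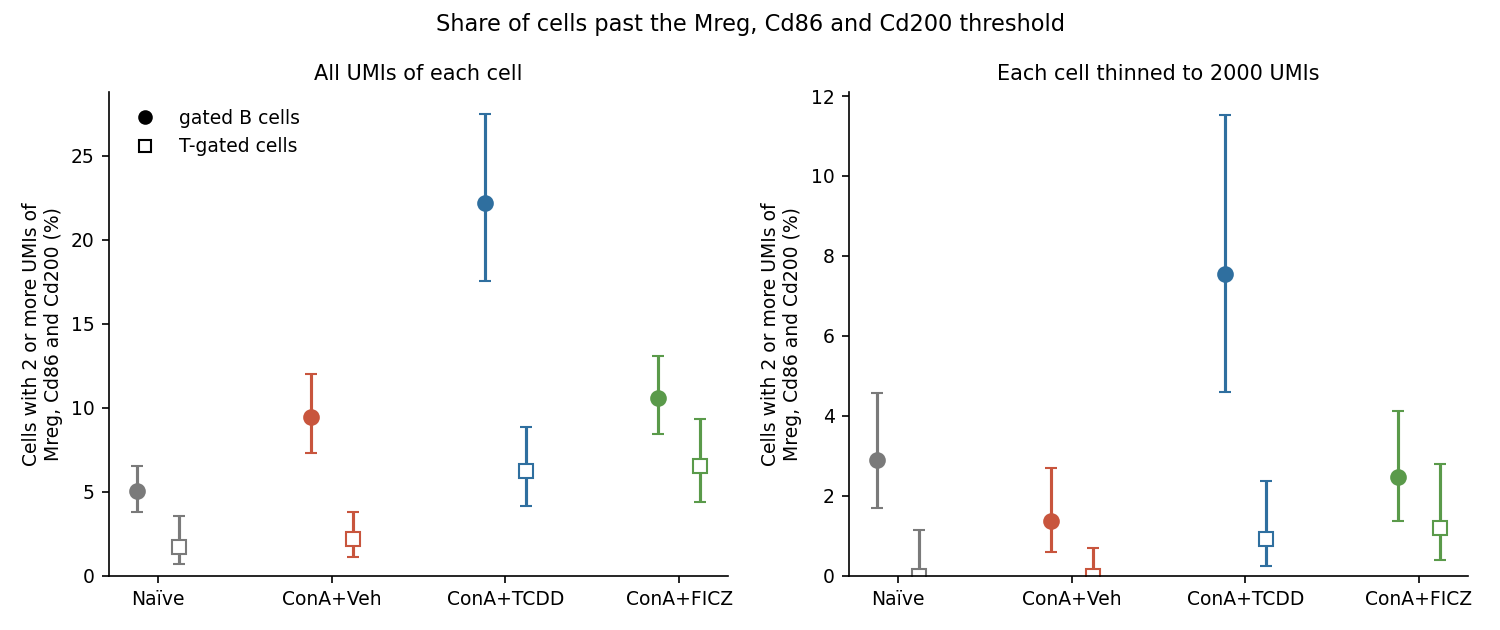
Share of cells with 2 or more UMIs of Mreg, Cd86 and Cd200 (y axis, percent) in each library (x axis), with all UMIs (left) and with each cell thinned to 2000 UMIs (right). Filled circles are gated B cells, open squares are T-gated cells, and bars are exact 95% binomial intervals; the ConA+TCDD B cells stand highest in both panels, at 22.2% and 7.54%, while Naïve and ConA+Veh change order.

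The threshold of 2 UMIs cut through a continuous range. In ConA+TCDD, 165 gated B cells had 0 UMIs of the 3 genes, 59 had 1, 31 had 2, 15 had 3, 6 had 4 and 12 had 5 or more. Sums of 5 or more were found in 0 Naïve, 2 vehicle and 3 FICZ cells, and the highest sum in any cell was 4, 5, 7 and 12. The 12 ConA+TCDD cells with 5 or more UMIs had a median depth of 4662 UMIs, below the 7733 UMIs of the cells with 2. Just outside the threshold, with 1 UMI, stood 194, 146, 59 and 165 cells, and just inside, with 2, stood 42, 38, 31 and 52.

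Genes of growth and ribosome production stood higher in the *Mreg*/*Cd86*/*Cd200* B cells. The growth list held 19 genes, among them *Myc*, nucleolar factors, translation factors and mitochondrial chaperones. Of its members, 16 were higher and 0 lower than in the other gated B cells in all 4 libraries, and the median of their mean log2 ratios was 0.53, against 0.03 over all genes. Across all 4861 genes the shares were 19.5% and 13.3%, as above. These shares describe a contrast that the rule itself made, so nothing is read from them.

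The summed growth level was 11716 CPM in selected and 5897 CPM in other cells of Naïve, 17511 and 13411 CPM in ConA+Veh, 21339 and 15919 CPM in ConA+TCDD, and 16279 and 13902 CPM in ConA+FICZ. It was higher in the selected cells of each library, by a log2 ratio of 0.99, 0.38, 0.42 and 0.23. *Mif*, a cytokine that leukocytes store and release, stood at 765, 1812, 2575 and 1500 CPM against 242, 1155, 1587 and 1270 CPM. *Ncl*, the major nucleolar protein nucleolin, stood at 691, 819, 1202 and 785 CPM against 331, 585, 746 and 714 CPM. *Myc* itself went the other way in 3 libraries, at 214, 77.3, 119 and 173 CPM against 309, 97.9, 96.2 and 181 CPM.

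Depth moved with this list, and its part in the difference was not tested beyond the following weighting. With the other gated B cells weighted to the depth of the selected cells of their library, 2 of the 19 growth genes were higher in all 4 libraries, beside 370 higher and 334 lower of all 4861 genes under the same weighting, and the summed log2 ratio became 0.34, 0.08, 0.27 and −0.04. The weighting left the Naïve cells uneven, with a mean of 3942 UMIs in the weighted others against 5203 in the selected cells. Counted per cell, the median number of growth UMIs per 10000 was 61.3, 133, 180 and 143 in the selected cells against 50.7, 96.0, 106 and 76.5 in the others, higher in each library.

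Cell division genes were also higher, and in summed UMIs the gap was widest in the Naïve library. The list held replication and mitosis genes, of which 16 were measured, 9 of them higher and 0 lower in all 4 libraries. Among all 4861 genes these shares were 19.5% and 13.3%. In Naïve, ConA+Veh and ConA+FICZ 16 of the 16 were higher in the selected cells, but in ConA+TCDD 9 of 16 were. Of all 4861 genes 2614, 2734, 2552 and 2592 were higher in the 4 libraries. The summed level of the list was 2088 against 418 CPM in Naïve, 3033 against 1624 CPM in ConA+Veh, 2189 against 2015 CPM in ConA+TCDD and 2886 against 1675 CPM in ConA+FICZ. The log2 ratio was thus 2.32 (2.17 to 2.47), 0.90 (0.83 to 0.97), 0.12 (0.02 to 0.22) and 0.79 (0.71 to 0.86). As means over cells, which give each cell equal weight, the median log2 ratio of the list was 0.72, 0.95, 0.15 and 0.99, so Naïve was not the highest.

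*Top2a*, the topoisomerase of dividing cells, illustrates how few Naïve cells this involved. Its level was 163, 274, 162 and 209 CPM against 7.78, 103, 119 and 119 CPM. The 44 Naïve UMIs came from 5 of 52 cells, 25 of them from 1 cell, and the 87 UMIs of ConA+TCDD came from 12 of 64 cells, 41 of them from 1 cell. Thinned to 2000 UMIs, cells with at least 3 UMIs of the division genes made up 10.8%, 49.2%, 41.3% and 34.7% of the selected cells, against 5.25%, 23.7%, 22.8% and 16.3% of the others. Thinned to 1000 UMIs the shares were 3.85%, 29.5%, 15.6% and 25.3% against 0.832%, 8.03%, 12.7% and 6.96%. The intervals overlapped there in ConA+TCDD, 7.76 to 26.9 and 8.59 to 17.8, and in Naïve, 0.469 to 13.2 and 0.360 to 1.63. The Naïve intervals also overlapped at 2000 UMIs, 3.03 to 25.4 and 3.55 to 7.46. With depth weighting the summed log2 ratio was 1.57, 0.13, −0.25 and 0.25, so in ConA+TCDD it turned below 0. Under that weighting 1 of the 16 division genes was higher and 0 lower in all 4 libraries, beside 370 and 334 of all 4861 genes.

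Antigen presentation genes were lower. Of the 10 MHC class II genes, 8 were lower in all 4 libraries and 0 higher, beside 13.3% and 19.5% of all 4861 genes. The median of their mean log2 ratios was −0.40. *Cd74*, the invariant chain, stood at 14672, 10902, 10760 and 10084 CPM against 25669, 14869, 12880 and 11908 CPM. *Ciita*, the transactivator of these genes, stood at 70.2, 44.4, 18.6 and 40.0 CPM against 105, 46.2, 46.9 and 62.0 CPM. The summed log2 ratio was −0.79, −0.39, −0.26 and −0.19, and after depth weighting −0.43, 0.02, −0.02 and 0.09. With that weighting 1 of the 10 genes was lower in all 4 libraries, beside 334 of all 4861 genes. The weighted medians over the 10 genes were −0.38, 0.01, −0.43 and 0.06, so the median and the sum differed in ConA+TCDD.

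B cell identity and receptor signalling genes followed the same direction, with 12 of 19 lower in all 4 libraries and 0 higher. The shares over all 4861 genes were 13.3% and 19.5%. *Ebf1*, a founding transcription factor of the lineage, was at 839, 443, 370 and 310 CPM against 1749, 474, 463 and 461 CPM. *Fcer2a*, the CD23 gene of resting follicular B cells, was at 159, 27.2, 11.1 and 18.6 CPM against 514, 36.2, 31.8 and 29.4 CPM. *Cd24a*, a surface glycoprotein, ran against the list in ConA+TCDD, where it stood at 502 against 320 CPM. After depth weighting 6 of the 19 were lower in all 4 libraries, beside 334 of all 4861 genes. The summed log2 ratio of the list was then −0.37, −0.03, −0.27 and 0.08, near 0 in ConA+Veh and above it in ConA+FICZ.

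Immediate early genes, which respond within minutes to receptor signals and to tissue handling, were lower as well. Of 13 measured, 8 were lower in all 4 libraries and 0 higher, with a median mean log2 ratio of −0.61. Among all 4861 genes 13.3% were lower and 19.5% higher. *Junb* stood at 1223, 253, 427 and 396 CPM against 3208, 434, 403 and 526 CPM, and so was near the other cells in ConA+TCDD. *Dusp1*, a phosphatase of MAP kinases, was lower in each library, at 73.9, 15.8, 9.29 and 30.6 CPM against 254, 38.9, 21.2 and 58.3 CPM. The summed log2 ratio of the list was −1.09, −0.78, −0.26 and −0.49, and −0.51, −0.32, −0.09 and −0.06 after depth weighting. Weighted in this way, 6 of the 13 were lower and 0 higher in all 4 libraries, beside 334 and 370 of all 4861 genes.

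Homing genes showed 4 of 12 lower in all 4 libraries and 1 higher, beside 13.3% lower and 19.5% higher of all 4861 genes. *Klf2*, which drives the circulation programme of resting lymphocytes, was at 898, 170, 126 and 237 CPM against 1398, 390, 305 and 354 CPM, lower in each library. *Cxcr3*, a receptor for the chemokines CXCL9 and CXCL10, was the 1 gene that stood higher in each, at 22.2, 73.0, 40.9 and 90.6 CPM against 2.59, 54.4, 28.8 and 38.8 CPM. After depth weighting 2 of the 12 were lower and 0 higher in all 4 libraries, beside 334 lower and 370 higher of all 4861 genes. The weighted median was 0.01 and the summed ratios were −0.06, 0.00, −0.17 and 0.22, so the lower direction of the list did not hold.

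NF-κB genes showed no common direction, with 2 of 17 higher and 5 lower in all 4 libraries and a median of −0.12. These counts stand beside 19.5% higher and 13.3% lower of all 4861 genes. With depth weighting 3 of the 17 were higher and 0 lower, beside 370 and 334 of all 4861 genes. The weighted sums gave log2 ratios of −0.41, 0.02, 0.09 and 0.15. *Bcl2a1d*, an anti-apoptotic target, was at 33.3, 77.3, 78.0 and 40.0 CPM against 38.9, 33.0, 40.9 and 21.2 CPM. Among the costimulatory and inhibitory ligands, *Cd274*, the PD-L1 gene, was below the other cells in Naïve, at 14.8 against 51.4 CPM, and above them in ConA+TCDD, at 33.4 against 15.1 CPM. Cytokine transcripts were sparse, with *Il6* at 0 CPM in the selected cells of all 4 libraries and *Il10* at 1.33 CPM in ConA+FICZ and 0 CPM elsewhere.

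**Figure D2:**
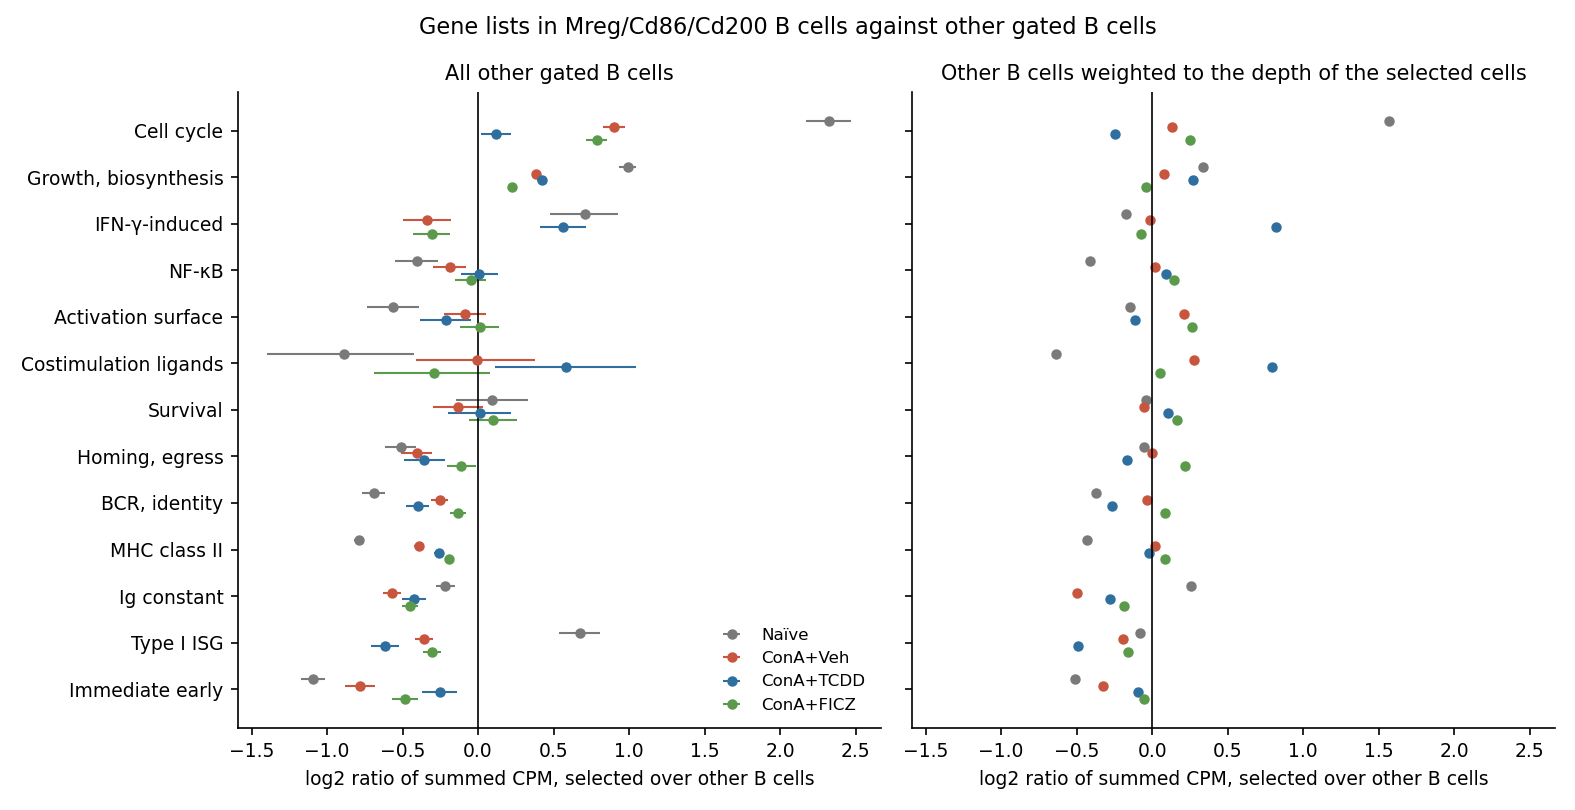
Log2 ratio of the summed CPM of each gene list (x axis), selected over other gated B cells, for each library (colours), against all other gated B cells with 95% counting intervals (left) and against other cells weighted to the depth of the selected cells (right). The immediate early list moves toward 0 on the right in every library, while cell cycle in Naïve (1.57) and the IFN-γ-induced list in ConA+TCDD (0.82) stand apart from 0.

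Single genes past 2-fold were few. A gene was counted when its mean log2 ratio, with 10 CPM added to each level, was at least 1 in size and had the same sign in all 4 libraries. There were 11 higher, or 0.226% of 4861 genes, and 22 lower, or 0.453%. Leaving out immunoglobulin segments and predicted genes, the 9 higher were *Top2a*, *Cks1b*, *Ube2c*, *Birc5*, *Rrm2*, *Chaf1a*, *Incenp*, *Lmnb1* and *Uhrf1*. They serve DNA replication, chromatin assembly, the nuclear envelope and mitosis, with mean log2 ratios from 1.01 to 1.45. The counts depended on single libraries, with 3 higher genes without Naïve, 52 higher and 36 lower without ConA+TCDD, and 22 higher and 38 lower without ConA+FICZ. With depth weighting 3 genes were higher.

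The 6 lower genes outside those classes were *S100a8*, *Ifitm1*, *Apoe*, *Fcer1g*, *Ifitm3* and *Dusp1*, of which *S100a8* and *Fcer1g* are myeloid genes. *S100a8* was at 3.70, 0, 5.57 and 5.33 CPM against 13.0, 311, 9.84 and 372 CPM. The neutrophil list gave 2778 UMIs in the 584 other cells of ConA+Veh and 3347 in the 633 of ConA+FICZ, with 4 and 3 cells holding at least 3 UMIs. With the cells that carried other-type markers left out, the mean log2 ratio of *S100a8* went from −2.69 to −0.41, of *Ifitm1* from −2.08 to −0.36, of *Fcer1g* from −1.57 to −0.28 and of *Ifitm3* from −1.52 to −0.60. *Apoe*, an apolipoprotein of hepatocytes and macrophages, held at −1.63 and *Dusp1* at −0.98. The *Apoe* level was 115, 51.6, 24.2 and 42.6 CPM against 249, 190, 142 and 214 CPM.

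The selected cells differed among themselves by which gene they carried. Cells with *Cd86* and no *Cd200* had more growth transcripts than cells with *Cd200* and no *Cd86* in each library, at 12979 against 9474 CPM in Naïve, 19109 against 18108 CPM in ConA+Veh, 26778 against 15167 CPM in ConA+TCDD and 21670 against 14080 CPM in ConA+FICZ. They had fewer MHC class II transcripts, at 25556 against 27224, 16366 against 19167, 10767 against 22310 and 8868 against 21008 CPM. The gap was widest in the libraries with an AhR ligand. The numbers of such cells were 11 and 20, 23 and 22, 14 and 15, and 16 and 38, and their median depths 2795 and 2267, 13148 and 9306, 10060 and 6846, and 12356 and 7407 UMIs, so the *Cd86* cells were also deeper each time. In ConA+TCDD the 35 cells with both genes had *Cxcl10* at 118 CPM (81.5 to 166), against 32.9 CPM (10.7 to 76.9) with *Cd86* and no *Cd200* and 0 CPM with *Cd200* and no *Cd86*. The 13 cells with *Mreg*, which overlap these classes, had 144 CPM (83.6 to 230).

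The lists also varied along the sum of the 3 genes, beyond the threshold. In ConA+TCDD the growth level was 15191, 17405, 21075 and 21603 CPM in cells with 0, 1, 2 and 3 or more UMIs, and *Klf2* 303, 308, 145 and 108 CPM. *Rbm3*, a cold-inducible RNA-binding protein that favours translation, was at 491, 605, 784 and 1393 CPM. In these cells the median depth was 3738, 5748, 7733 and 4981 UMIs, so the last step was not the deepest. In Naïve the immediate early level was 10300, 9789, 6737 and 2456 CPM, while the median depth was 2049, 2398, 2439.5 and 12326 UMIs.

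**Figure D3:**
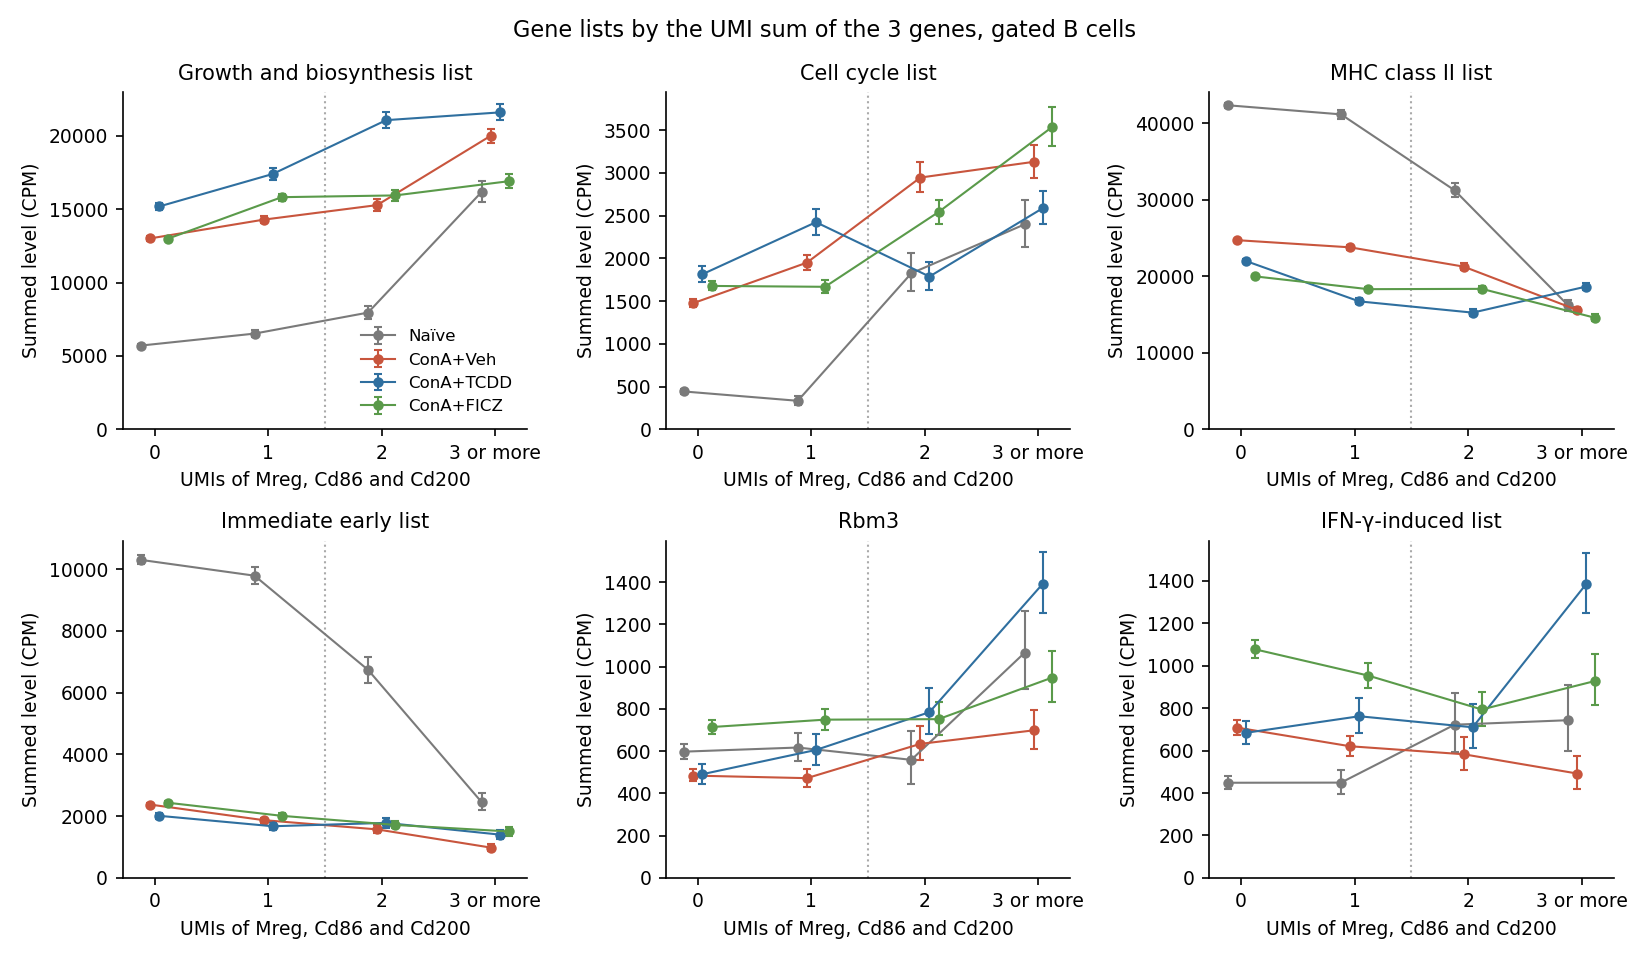
Summed CPM (y axis) of 5 gene lists and of Rbm3 in gated B cells with 0, 1, 2 and 3 or more UMIs of Mreg, Cd86 and Cd200 (x axis), by library, with 95% counting intervals; the dotted line marks the threshold. Growth transcripts are higher at each further step in every library, immediate early transcripts are lowest in the last step, and Rbm3 and the IFN-γ-induced list are highest in the last ConA+TCDD step (1393 and 1386 CPM).

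AhR and its usual targets were next examined in the selected cells, since TCDD and FICZ bind the receptor. *Ahr* stood at 33.3, 48.7, 81.8 and 24.0 CPM against 16.0, 24.8, 33.3 and 23.2 CPM in the other gated B cells. The counting interval of the ratio lay above 0 in ConA+Veh and ConA+TCDD and spanned 0 in Naïve and ConA+FICZ. The counts behind these values were 9, 34, 44 and 18 UMIs in 7, 22, 25 and 17 cells. Thinned to 2000 UMIs, *Ahr* was found in 2.70%, 14.8%, 12.7% and 5.33% of the selected cells and in 2.90%, 4.43%, 5.29% and 4.27% of the others. Thinned to 1000 UMIs the shares were 0%, 1.64%, 10.9% and 0% against 1.25%, 2.44%, 2.71% and 3.24%. At 1000 UMIs the intervals overlapped in each library, in ConA+TCDD at 4.51 to 21.2 and 1.003 to 5.82. At 2000 UMIs they overlapped in all libraries but ConA+Veh, where they were 6.98 to 26.2 and 2.83 to 6.58. *Cyp1a1*, *Cyp1b1*, *Ahrr*, *Nqo1* and *Aldh3a1*, the classical induced genes, had no UMI in the selected cells of any library. *Tiparp*, an AhR-induced ADP-ribosyltransferase, was at 29.6, 24.3, 27.9 and 21.3 CPM against 32.8, 28.1, 33.3 and 24.1 CPM, slightly lower in each library with counting intervals that spanned 0. The exact interval of a count of 0 reached 13.6, 5.28, 6.85 and 4.91 CPM, so levels up to these remain compatible with the counts.

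Between libraries, a gene of the selected cells was counted when its log2 ratio, with 10 CPM added, was at least 1 in size and the counting interval of the plain ratio lay on the same side of 0. Genes with a mean of at least 50 CPM in the 2 libraries entered. The intervals printed with these ratios are those of the plain ratio, so a shrunken ratio need not sit at their centre. The comparisons with ConA+Veh share that library, so its values enter each of them.

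The question of how ConA alone changed these cells was addressed by ConA+Veh against Naïve. Of 2474 genes, 75 were higher, or 3.03%, and 173 lower, or 6.99%. In the other gated B cells 190 were higher and 287 lower of 2447. Immediate early genes were lower in 9 of 9 measured members and homing genes in 7 of 11, both above the background of 6.99%. *Fos* was at 314 CPM in Naïve and 41.5 CPM in ConA+Veh, a log2 ratio of −2.65 (−3.58 to −2.30), beside −3.57 in the other cells. *Klf2* gave −2.33 (−2.73 to −2.08), beside −1.81 in the others, and *Itgb7*, the integrin chain of gut homing, gave −2.40 (−4.24 to −1.99), beside −2.15.

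*Gclm*, a subunit of the glutathione-making ligase, led the higher genes, with 99.8 CPM in Naïve and 809 CPM in ConA+Veh, a log2 ratio of 2.90 (2.46 to 3.63), beside 3.14 in the others. *Lig1*, a DNA ligase of replication, was higher by 1.57 (0.91 to 2.77), beside 1.87. Type I interferon genes were higher in 3 of 5 measured, against 3.03% of all genes, and their summed log2 ratio of 0.89 (0.75 to 1.03) stood beside 1.92 in the other gated B cells. Growth genes gave 0.58 (0.52 to 0.64) beside 1.19, and division genes 0.54 (0.40 to 0.68) beside 1.96. The selected cells of the 2 libraries were closer in these 3 lists than the other gated B cells were, and the Naïve selected values rest on few deep cells. Median-of-ratios scaling moved the median of all genes to 0.19 and the split of counted genes from 75 higher and 173 lower to 154 higher and 110 lower, so the excess of lower genes depends on the scaling. Leaving the sums aside, the mean over cells gave 200 higher and 306 lower.

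The question of how TCDD changed these cells after ConA was addressed by ConA+TCDD against ConA+Veh. In the selected cells 24 genes were higher of 2310, or 1.04%, and 31 lower, or 1.34%, while in the other gated B cells 2 were higher and 18 lower of 2262. These counts moved with the processing, to 58 higher and 64 lower of 3463 with totals without ribosomal protein and mitochondrial genes, 53 and 57 as means over cells, 33 and 57 without cells carrying other-type markers, and 7 and 16 with 50 CPM added. The selected sums hold 698286 and 538224 UMIs, fewer than the others', and the part of this smaller depth in the counts was not tested. Of the counted genes 7 higher and 11 lower were immunoglobulin segments, which follow the clones sampled, and 4 lower were histones. Replication-dependent histone transcripts, such as *Hist1h2ae* and *Hist1h1b*, lack poly(A) tails, which the assay uses for capture. The 4 also include *H2afv*, a variant histone outside that class.

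Genes induced by IFN-γ were on the higher side. Of 5 list members measured, 2 were counted and 0 were lower, *Irf1* and *Gbp2*, against the background of 1.04%. *Irf1*, a transcription factor of the interferon response, was at 59.1, 37.2, 113 and 55.9 CPM. In the other gated B cells it was at 96.4, 79.2, 96.9 and 95.1 CPM. Selected over other cells, the ratio interval spanned 0 in Naïve and ConA+TCDD (−0.24 to 0.68) and lay below 0 in ConA+Veh and ConA+FICZ. The ConA+Veh selected cells were thus the low ones for *Irf1*. Its log2 ratio of ConA+TCDD over ConA+Veh was 1.38 (0.92 to 2.33), beside 0.26 (−0.02 to 0.60) in the other cells. The 61 ConA+TCDD UMIs of *Irf1* came from 35 of 64 cells. *Gbp2*, a guanylate-binding GTPase of cell-autonomous defence, was at 196, 87.4, 208 and 192 CPM. Its log2 ratio was 1.16 (0.79 to 1.73), beside 0.49. The ConA+Veh library was thus the low one for *Gbp2*, and ConA+TCDD did not exceed Naïve or ConA+FICZ beyond the counting intervals.

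The 11 genes of that list summed to 732, 540, 1048 and 840 CPM in the selected cells, and the summed log2 ratio of ConA+TCDD over ConA+Veh was 0.96 (0.77 to 1.15), beside 0.06 in the other gated B cells. The measured members higher in selected than in other cells numbered 6 of 9 in Naïve, 3 of 9 in ConA+Veh, 9 of 9 in ConA+TCDD and 0 of 9 in ConA+FICZ. Of all 4861 genes 2614, 2734, 2552 and 2592 were higher in the same order. The summed log2 ratio of the list was 0.71 (0.48 to 0.93), −0.34 (−0.50 to −0.18), 0.56 (0.41 to 0.72) and −0.31 (−0.43 to −0.18). After depth weighting it was −0.17, −0.01, 0.82 and −0.07, so ConA+TCDD alone stayed above 0. ConA+TCDD B cells with 0, 1, 2 and 3 or more UMIs of the selecting genes stood at 684, 762, 710 and 1386 CPM. The higher level thus lay in the 33 selected cells with 3 or more UMIs. The 31 selected cells with 2 UMIs, at 613 to 818 CPM, were near the cells below the threshold. *Cxcl10*, a chemokine that attracts CXCR3-bearing lymphocytes, was at 22.2, 25.8, 70.6 and 16.0 CPM against 6.48, 9.35, 8.33 and 24.4 CPM. Its 38 UMIs in ConA+TCDD came from 11 cells, 11 UMIs from 1 cell. Type I interferon genes went the other way between the libraries, with a summed log2 ratio of −0.64 (−0.73 to −0.54) beside −0.38.

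Of 18 measured growth genes, 0 were counted as higher or lower, beside 1.04% higher and 1.34% lower of all genes. *Noc4l*, *Ppan* and *Gnl3* act in the nucleolus. *Noc4l* was at 66.5, 27.2, 92.9 and 55.9 CPM, a log2 ratio of 1.47 (0.98 to 2.62), beside 0.24. *Ppan* gave 1.36 (0.88 to 2.38), beside 0.64, and *Gnl3* 1.14 (0.77 to 1.68), beside 0.52. *Abce1*, a ribosome recycling factor, gave 1.17 (0.64 to 2.21), beside 0.13. The summed growth list gave 0.29 (0.25 to 0.32), beside 0.25, so as a whole it differed about as much in the other gated B cells.

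*Nfkbid*, a nuclear IκB protein that modulates NF-κB in B cells, was at 200, 35.8, 104 and 29.3 CPM, a log2 ratio of 1.32 (0.83 to 2.28), beside 0.06. Its 56 ConA+TCDD UMIs came from 17 cells, 12 UMIs from 1 cell. Thinned to 2000 UMIs, *Nfkbid* was found in 15.9% (7.88 to 27.3) of the ConA+TCDD selected cells. The share was 8.99% (5.33 to 14.0) in the other ConA+TCDD B cells and 6.56% (1.82 to 15.9) in the ConA+Veh selected cells, with overlapping intervals. *Plscr1*, an interferon-responsive scramblase, gave 1.43 (0.97 to 2.40), beside 0.55, and *Sertad1*, a regulator of E2F transcription, 1.08 (0.58 to 1.94), beside 0.36. *Cirbp*, a cold-inducible RNA-binding protein, was at 115, 34.4, 91.0 and 32.0 CPM, a ratio of 1.19 (0.67 to 2.17), beside 0.37. *Rbm3*, its close relative, was at 791, 664, 1089 and 819 CPM against 602, 480, 528 and 725 CPM in the other cells. In ConA+TCDD, where it was highest, *Rbm3* UMIs were found in 61 of 64 selected cells.

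On the lower side, 2 of 15 measured division genes and 2 of 7 homing genes were counted, against the background of 1.34%. *Ube2c* and *Cdca8*, which act in mitosis, gave −1.48 (−2.43 to −1.01), beside −0.29, and −1.31 (−2.38 to −0.78), beside 0.28. Division genes summed to −0.47 (−0.57 to −0.37), beside 0.31 in the other gated B cells, opposite in sign, though the difference between the ratios was not tested. *Ccr6*, the receptor for CCL20, was at 70.2, 94.5, 31.6 and 75.9 CPM, a ratio of −1.33 (−2.44 to −0.80), beside −0.19. *Crip1*, a LIM-domain protein, was at 1216, 875, 357 and 547 CPM, a ratio of −1.27 (−1.54 to −1.06), beside −0.10, and of −0.86 without cells carrying other-type markers. *S100a6*, a calcium-binding protein, was at 37.0, 233, 33.4 and 119 CPM, a ratio of −2.49 (−3.59 to −2.10), beside −0.22. Of its 163 ConA+Veh UMIs, 52 came from 1 of 61 cells. The remaining named genes were *Hist1h2ae*, *Hist1h1b*, *Pld4*, *S100a13* and *H2afv*, from −1.90 to −1.26.

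**Figure D4:**
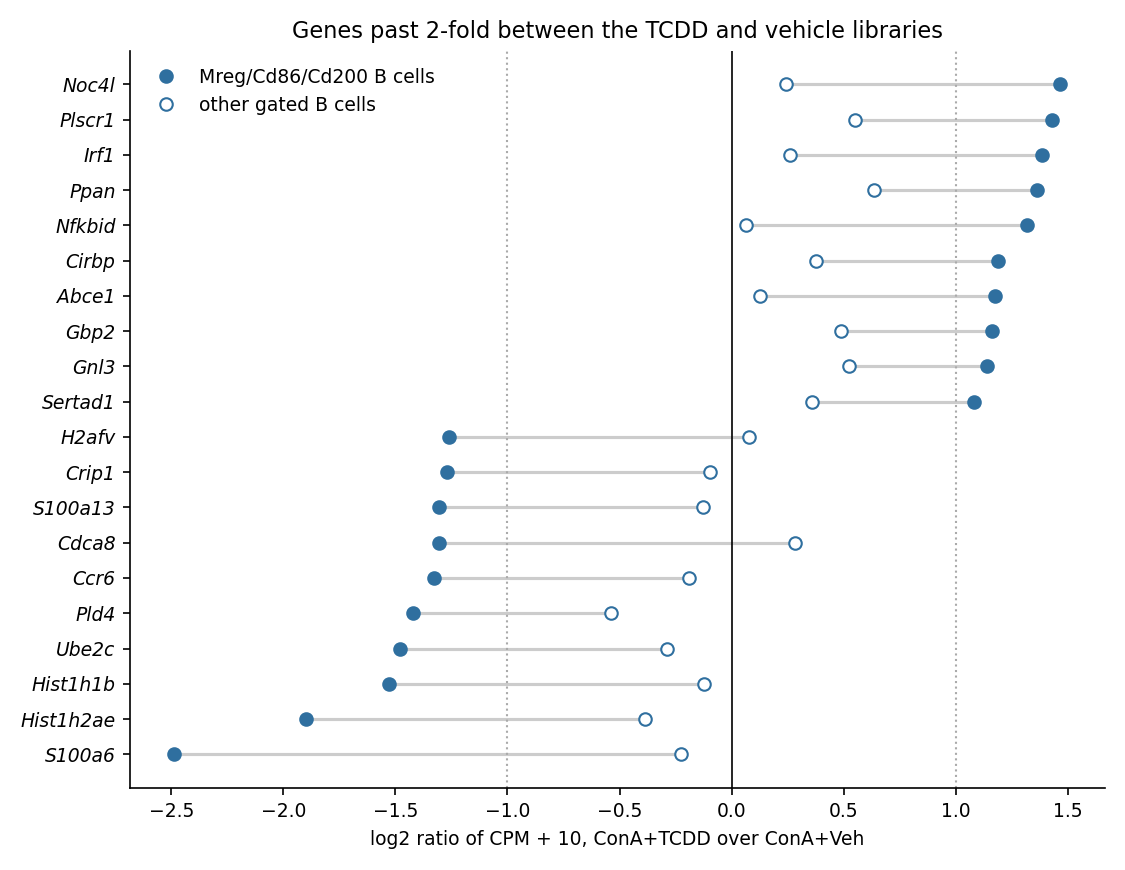
Log2 ratio of CPM + 10, ConA+TCDD over ConA+Veh (x axis), for the 20 named genes (y axis) in Mreg/Cd86/Cd200 B cells (filled) and in other gated B cells (open); dotted lines mark 2-fold. The other cells lie between −0.54 and 0.64, inside 2-fold for all 20 genes, which were chosen on the filled points.

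Promoter sequences of the genes counted as higher were searched for the AhR core, since TCDD is an AhR ligand. Of the 24 genes, 15 had an entry in the promoter table, and 10 of these, or 66.7%, held GCGTG on either strand, against 4 of 11 matched lower genes, or 36.4%, and 35.2% of all 27025 genes. A gene with several listed starts has more chances of a match, and *Irf1*, *Nfkbid* and *Cirbp* had 2, 3 and 2. The higher and lower genes had entered at a mean of at least 50 CPM, while the 27025 were taken at any level. The share over all genes is thus an unlike background, and the difference between the shares was not tested. The windows of 5 genes described above follow, on the strand of the gene with the core in capitals, so that the sequence behind each count can be seen. *Irf1*, *Nfkbid* and *Cirbp* held more matches, of which 1 each is printed, and *Cxcl10* was not among the 24. They lie on chr5:110653465-110653489 (minus), chr11:53770417-53770441 (plus), chr7:30422296-30422320 (plus), chr10:80167757-80167781 (plus) and chr5:92349097-92349121 (minus), in this order.
Noc4l: atagctgcccCACGCcgcggttcct
Irf1: gcgggccgcgGCGTGcaccgccctc
Nfkbid: tgcggcgcgcGCGTGcggagcggaa
Cirbp: ggtcagcgcgGCGTGgtgggcgggt
Cxcl10: tcaaacagctCACGCtttggaaagt

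The question of how the shorter-lived ligand compared was addressed by ConA+FICZ. Against ConA+Veh, 10 genes were higher of 2359, or 0.424%, and 7 lower, or 0.297%, and in the other gated B cells 15 were higher and 16 lower of 2302. The 5 named genes on the higher side were *Ppan*, *Bcl3*, *Rnf213*, *Myc* and *Gbp2*. *Gbp2* gave 1.05 (0.69 to 1.59), beside 1.37 in the other gated B cells, and *Myc* 1.07 (0.69 to 1.65), beside 0.83. *Rnf213*, a large interferon-responsive ubiquitin ligase, gave 1.12 (0.65 to 1.98), beside 0.09. *Bcl3*, a nuclear IκB protein, gave 1.12 (0.64 to 2.07), beside 0.54. The IFN-γ-induced list summed to 0.64 (0.45 to 0.83), beside 0.61, so it differed as much in the other cells. The counted lower genes were immunoglobulin segments in 6 of 7 cases, and none of the 7 fell among the genes eligible for naming. Median-of-ratios scaling gave 10 higher and 11 lower, while other settings moved the total further, as listed under the dependence on processing.

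ConA+TCDD against ConA+FICZ compared the 2 ligands in the selected cells, at treatments whose FICZ dose and time are not known. Of 2328 genes, 20 were higher, or 0.859%, and 36 lower, or 1.55%, with 12 and 19 of 2315 in the other gated B cells. As means over cells, 62 were higher and 50 lower, so the excess of lower genes depends on how cells are weighted. *Ahr* was higher by 1.43 (0.95 to 2.65), beside 0.38 (−0.04 to 1.07) in the others. *Nfkbid* gave 1.54 (1.09 to 2.61), beside 0.13, and *Lap3*, an aminopeptidase induced by IFN-γ, 1.49 (1.04 to 2.53), beside −0.27. *Sertad1* gave 1.33 (0.86 to 2.29) and *Cirbp* 1.27 (0.78 to 2.28). The lower genes included *Fos*, with −2.09 (−4.13 to −1.63), beside −1.74. *S100a6* gave −1.57, *Hist1h2ae* −1.85 and *Gga2*, an adaptor of vesicle sorting, −1.25. The growth list summed to 0.39 (0.35 to 0.43), beside 0.20, and the division list to −0.40 (−0.50 to −0.30), beside 0.27.

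**Figure D5:**
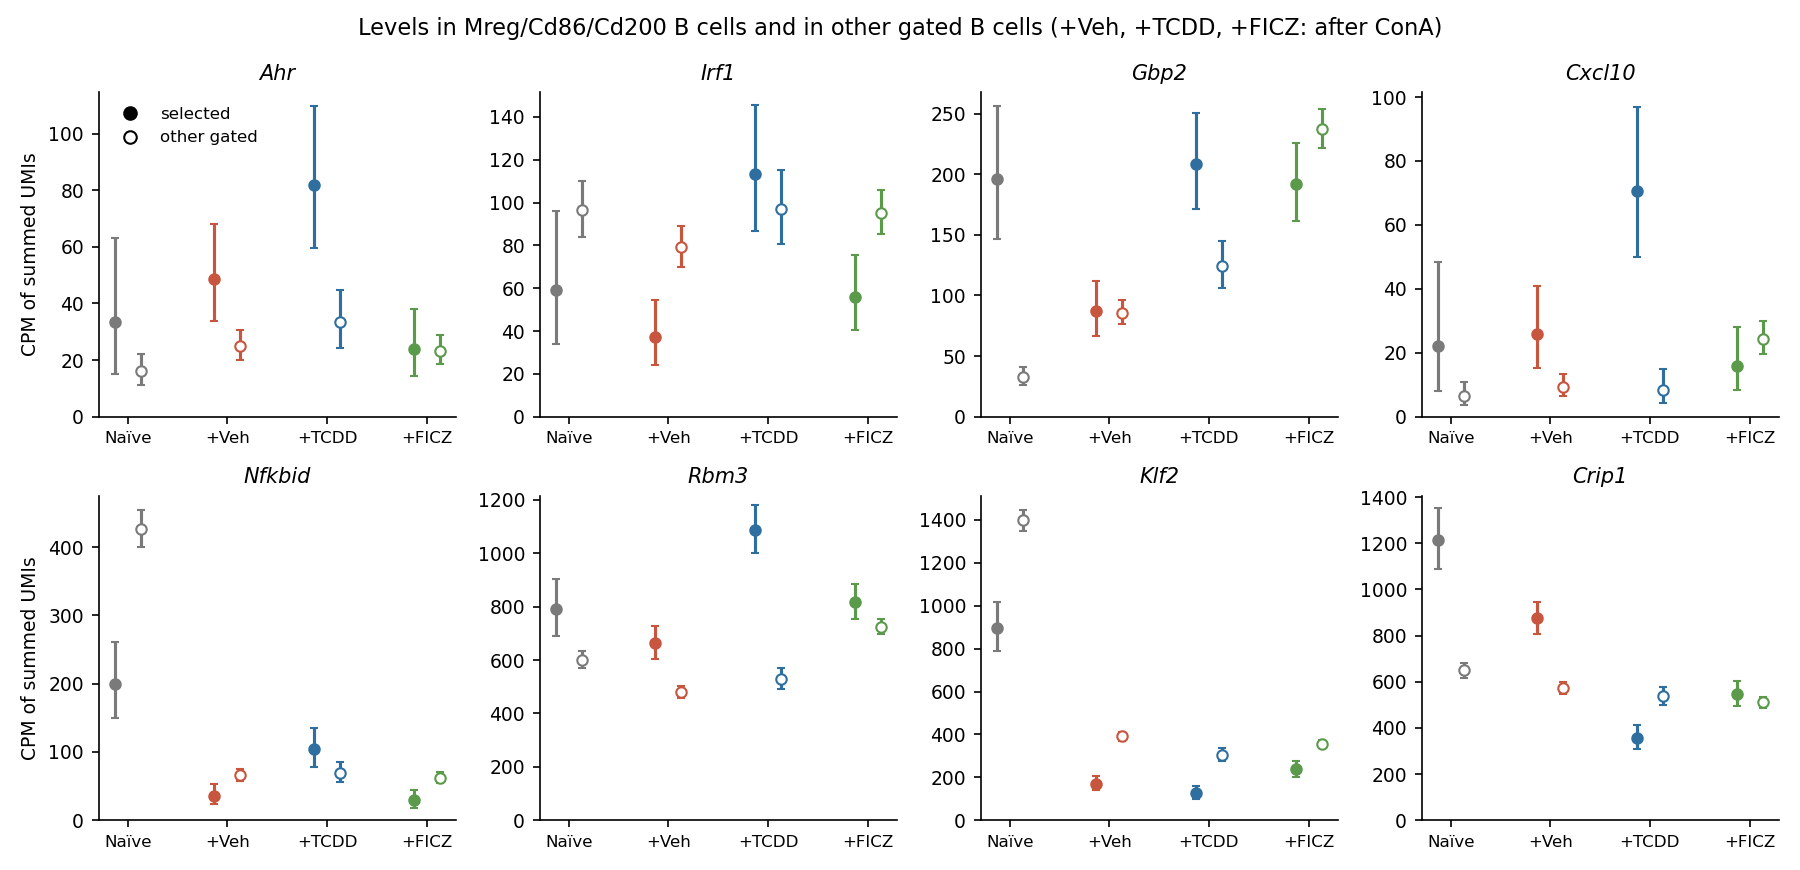
Levels of 8 genes as CPM of summed UMIs (y axis) in each library (x axis), in selected B cells (filled) and other gated B cells (open), with exact 95% Poisson intervals. Ahr, Irf1, Cxcl10 and Rbm3 of the selected cells are highest in ConA+TCDD, at 81.8, 113, 70.6 and 1089 CPM, and Crip1 is lowest there, at 357 CPM.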

How the data were processed

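Liver mononuclear cells of 4 mouse groups were profiled by 5′ droplet sequencing, with 1 library per group. The authors deposited raw UMI counts per gene and cell, which per the file headers came from Cell Ranger 3.0.2, and the submitters' processing notes name mm10. The files held 9300 cells with 31053 genes and 5952445, 19252211, 12077209 and 16017797 UMIs for the untreated, vehicle, TCDD and FICZ libraries. No filter on genes per cell was added, and no doublet caller was run.

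Cells were gated by UMI sums, and UMIs were summed over the cells of each class and expressed as CPM. Intervals are exact Poisson, Clopper-Pearson and conditional binomial 95% intervals. Genes entered at a mean of 20 CPM over the 8 sums for selected against other cells, and of 50 CPM over the 2 libraries compared, and 10 CPM was added before log2 ratios were taken. Thinning to 1000 or 2000 UMIs used 1 random draw. Depth weighting matched the other cells to the selected cells in 5 bins of depth. The named genes were the 10 highest and 10 lowest of those counted in selected against other cells and in ConA+TCDD over ConA+Veh, the 5 highest and 5 lowest in the other pairs, and the genes of the lists. The selecting genes, mitochondrial genes, immunoglobulin and T cell receptor segments and predicted models were not ranked. Some genes that these rules name are not reported here. The cells and gene lists were chosen with earlier results of these data known. Counts were handled with pandas 2.3.3 and numpy 2.4.6, intervals with scipy 1.17.1 and figures with matplotlib 3.10.9 under Python 3.11.15, and the steps were tested on simulated counts.

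Alternatives covered the threshold, the gate, the mitochondrial limit, thinning, the selecting genes, scaling, the added CPM, the minimum CPM and cells with markers of other types, and, chosen after seeing the data, each library left out in turn.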

Additional observations from a re-analysis of the deposited data

How the results depend on the processing

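No paired analysis was possible because each group had 1 library. The share ratio of ConA+TCDD over ConA+Veh was positive under each alternative run. With a threshold of 1 UMI it was 0.41, and ConA+TCDD over ConA+FICZ was 0.33. With 3 UMIs ConA+Veh over Naïve was 1.88 and ConA+TCDD over ConA+FICZ 1.82. Thinned to 1000 UMIs, ConA+TCDD over ConA+FICZ was 3.74, which rests on 11 of 285 and 2 of 693 cells. The ratios to ConA+Veh could not be had at that depth because no ConA+Veh cell passed. Thinned to 2000 UMIs, the ratios were −1.07 for ConA+Veh over Naïve, which reversed, 2.45 for ConA+TCDD over ConA+Veh, 0.84 for ConA+FICZ over ConA+Veh and 1.61 for ConA+TCDD over ConA+FICZ. Without *Cd200* in the sum, ConA+Veh over Naïve was 1.58, ConA+FICZ over ConA+Veh −0.62 and ConA+TCDD over ConA+FICZ 1.73.

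The counts of genes past 2-fold moved most. Selected against other cells gave 11 higher and 22 lower. The higher count was 18 with totals without ribosomal protein and mitochondrial genes, 7 as means over cells and 3 with depth weighting. It was 2, with 10 lower, with 50 CPM added, and 27, with 42 lower, with 1 CPM added. With no minimum CPM 35 were lower, and with a minimum of 100 CPM 2 were higher and 4 lower. Leaving out a library gave 3 higher (Naïve), 52 higher and 36 lower (ConA+TCDD), and 22 higher and 38 lower (ConA+FICZ).

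Between libraries the counts were 248, 55, 17 and 56 for ConA+Veh over Naïve, ConA+TCDD over ConA+Veh, ConA+FICZ over ConA+Veh and ConA+TCDD over ConA+FICZ. In that order they were 442, 122, 53 and 133 with totals without ribosomal protein and mitochondrial genes, where more genes entered. They were 506, 110, 34 and 112 as means over cells, 99, 23, 9 and 24 with 50 CPM added, 867, 302, 157 and 299 with no minimum, and 126, 22, 9 and 23 with a minimum of 100 CPM. ConA+FICZ over ConA+Veh gave 27 with 1 CPM added. Without cells carrying markers of other types, ConA+TCDD over ConA+Veh gave 90 and ConA+FICZ over ConA+Veh 40. With 50 CPM added, the log2 ratios of *Noc4l*, *Plscr1*, *Irf1* and *Ppan* for ConA+TCDD over ConA+Veh were 0.89, 0.93, 0.90 and 0.86. No named gene reversed, and the causes were not tested.

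With 1 library per condition and few UMIs for genes such as *Mreg* and *Ahr*, none of these differences separates treatment from library.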
